A study of Mus musculus with 36 samples.

Results

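Immunoglobulin heavy-chain variable genes (Ighv) encode the antigen-contacting end of antibody heavy chains. They were taken here as every symbol of the count table that begins with Ighv and had 10 or more counts in total over all libraries. That gave 106 genes of the 183 Ighv symbols and of the 49568 symbols in the table, holding 22470 counts between them. The other 77 Ighv symbols held 100 counts together, and 45 of them had none. Ighv1-30 and Ighv1-43, with 10 counts each, and Ighv7-4, with 11, lay just inside the limit. Ighv3-4, with 9 counts, and Ighv8-2 and Ighv1-37, with 7 each, lay just outside.

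The study sequenced polyadenylated RNA from 36 ligated left carotid arteries, each from 1 mouse, collected 14 days after ligation, a procedure that remodels the vessel wall. Mice were C57BL/6 (B6; C57BL/6J in the protocol) or 129X1/SvJ (129X1), and their age was not given in the sources used here. Each strain received vehicle at 2 mL/kg/day, valsartan (Val) at 27 mg/kg/day, an angiotensin receptor blocker, or sacubitril/valsartan (Sac/val) at 60 mg/kg/day, which adds a neprilysin inhibitor. Dosing was prophylactic, from 2 days before ligation for 16 days, or therapeutic, from 7 days after ligation for 7 days. This made 12 groups of 3 mice, all with ligated arteries, so that no unligated artery was compared here. Libraries held 18.96 to 28.97 M counts. Smooth muscle markers of the artery wall were present throughout, 4 of them summing to 128 to 3038 CPM (counts scaled to the total of the library). Neighbouring tissue was present in some libraries, with 2 thyroid markers at 0.188 to 43125 CPM.

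A heavy-chain variable segment is joined in developing B cells to 1 diversity and 1 joining segment by the Rag recombinase, and each B cell clone keeps its own joined segment. A plasma cell transcribes that segment far more strongly than a resting B cell does, so counts of variable genes in a tissue reflect both the number of clones and their secretory state. The locus is one of the most variable between inbred mouse strains: B6 carries the Igh-b haplotype and 129 strains the Igh-a haplotype. In bulk RNA, fewer cells of a type and less RNA per cell cannot be told apart.

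All 106 genes lie on the minus strand of chromosome 12 between 113572927 and 116010093 (GRCm38), a stretch of 2437 kb, with Ighv5-1 nearest the constant genes and Ighv1-86 farthest. GENCODE M21 annotates 92 of them as genes and 14 as pseudogenes of the reference genome, which comes from C57BL/6 mice. Each of the 14 reference pseudogenes, aligned to its closest annotated functional relative, held at least 1 stop codon or frameshift, and 11 held exactly 1. A few of these lesions are shown because these pseudogenes took counts from 129X1 arteries, as described further on. Sequences are from GENCODE M21 transcripts on GRCm38, read 5′ to 3′ on the minus strand, and positions count from the start of the pseudogene's transcript. In Ighv3-2 (chr12:114033803-114034233) and its relative Ighv3-1 (chr12:113964388-113964818), which share 95.4% of aligned bases, capitals mark the stretch around a frameshift of -1 base at position 220.
Ighv3-2: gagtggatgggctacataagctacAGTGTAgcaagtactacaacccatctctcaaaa
Ighv3-1: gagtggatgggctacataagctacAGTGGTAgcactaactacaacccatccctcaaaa
In Ighv1-33 (chr12:114843651-114844083) and its relative Ighv1-26 (chr12:114788372-114788805), which share 96.0% of aligned bases, capitals mark a frameshift of -1 base at position 169.
Ighv1-33: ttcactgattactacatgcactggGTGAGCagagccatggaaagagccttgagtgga
Ighv1-26: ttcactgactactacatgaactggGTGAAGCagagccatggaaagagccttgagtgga
In Ighv4-2 (chr12:114013144-114013606) and its relative Ighv4-1 (chr12:113948282-113948796), which share 96.3% of aligned bases, capitals mark a TGA stop codon at position 205 and the codon opposite it.
Ighv4-2: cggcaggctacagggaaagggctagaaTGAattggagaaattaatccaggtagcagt
Ighv4-1: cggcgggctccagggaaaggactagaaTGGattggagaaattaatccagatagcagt
In Ighv1-83 (chr12:115963817-115964250) and its relative Ighv1-84 (chr12:115980702-115981134), capitals mark a TAG stop codon at position 58 and the codon opposite it.
Ighv1-83: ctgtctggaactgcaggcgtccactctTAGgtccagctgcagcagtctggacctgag
Ighv1-84: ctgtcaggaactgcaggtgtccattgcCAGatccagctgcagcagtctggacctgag

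The segments are close copies of each other, which bears on every count given here. Over the last 290 bases of its transcript, each gene shared a median of 95.2% of bases with its nearest other Ighv segment. That identity was 95% or more for 55 genes and 98% or more for 8, and Ighv1-62-2 matched Ighv1-71 over all 290 bases. Reads were aligned to GRCm38 alone, so a 129X1 segment that is missing from it can only be counted at a related segment or be lost, and how far this happened was not tested.

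Segments that are broken in the reference took far more counts from 129X1 than from B6 arteries. Over all 69 Ighv pseudogene symbols of the table, with no limit on counts, the 18 B6 libraries held 16 counts and the 18 129X1 libraries 1158. The 113 symbols annotated as genes held 10903 counts in B6 and 10493 in 129X1, and 1 further symbol had none in either strain. Among the 106 genes, pseudogenes took 0.0459% of the Ighv counts of B6 (5 counts, in 3 of 18 libraries) and 9.72% of those of 129X1 (1126 counts, in 16 of 18 libraries). Among the 28 libraries with 100 or more Ighv counts, 14 of each strain, their share ranged from 0% to 0.106% in B6, with a median of 0%. In 129X1 it ranged from 2.69% to 31.0%, with a median of 7.96%, so the strains did not overlap. Each of these pseudogenes reached the limit of 10 counts only through 129X1, so their choice favours that separation. For all 69 pseudogene symbols the counts are given as sums only. Without the 4 129X1 libraries richest in B cell transcripts, the 129X1 share was 11.0% of 3557 counts. The contrast depends on the annotation: the 12 of the 106 genes that RefSeq marks as pseudogenes held 407 counts in B6 and 1107 in 129X1. They include Ighv7-1 and Ighv7-3, which GENCODE calls genes and which had 207 and 195 counts in B6. RefSeq lists Ighv1-14, Ighv1-70, Ighv1-83 and Ighv1-86, pseudogenes in GENCODE, as V segments. The counts carry no base calls, so whether the 129X1 transcripts hold the reference lesions was not tested.

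**Figure D1:**
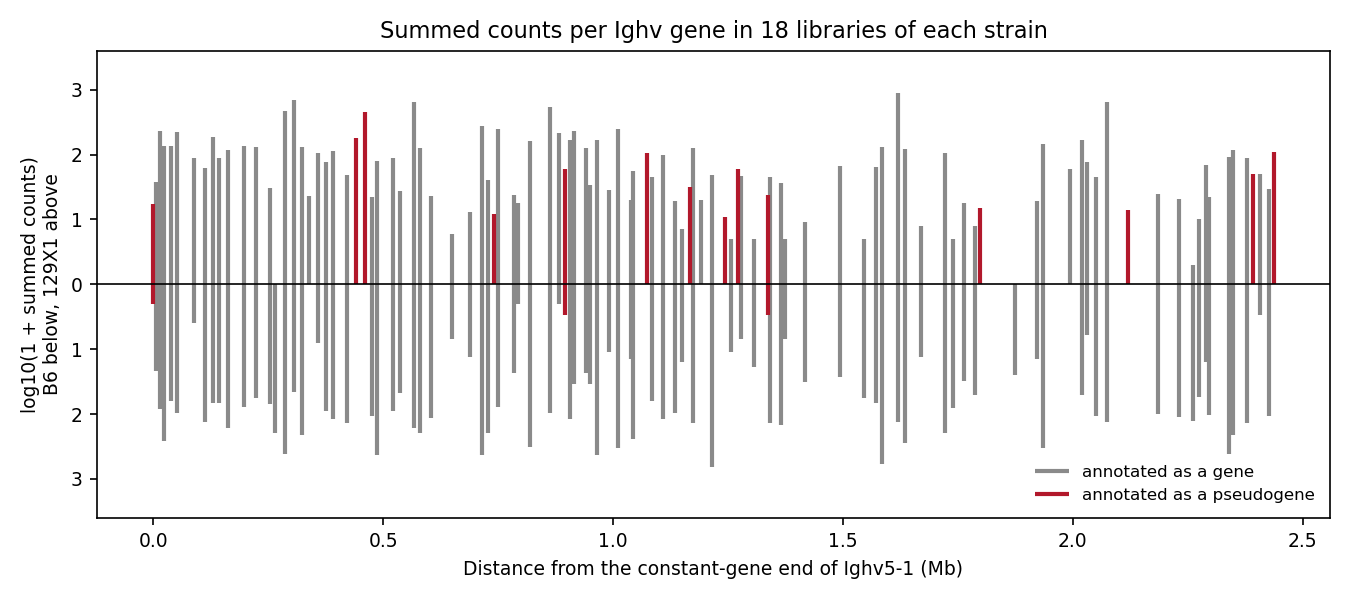
Counts summed over 18 libraries of each strain for each of the 106 Ighv genes, on a log10(1 + counts) axis with 129X1 drawn upward and B6 downward, against distance in Mb from Ighv5-1 at the constant-gene end. Genes are grey and reference pseudogenes red: the red bars reach up in 129X1, to 453 counts for Ighv3-2, and 11 of the 14 have no bar in B6.

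Ighv3-2 was the most counted of the reference pseudogenes. It had 453 counts in 14 of 18 129X1 libraries and 0 in all 18 B6 libraries, where 3 counts over the group would be 0.00713 CPM. In 129X1 its counts were 0, 151 and 49 after prophylactic vehicle, 1, 0 and 13 after prophylactic Val, and 2, 13 and 0 after prophylactic Sac/val. They were 4, 48 and 3 after therapeutic vehicle, 10, 1 and 0 after therapeutic Val, and 61, 83 and 14 after therapeutic Sac/val. Counts thus came from every 129X1 group, and the libraries without any lay in 4 of them. Against the limit of 3 counts over the B6 libraries, Ighv3-2 was at least 156-fold higher in 129X1. Its functional relative Ighv3-1 was counted in both strains, with 119 counts in B6 and 114 in 129X1.

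In all, 14 genes had 0 counts in B6, 11 of them reference pseudogenes. Since each reached the limit of 10 counts through 129X1 alone, their number and direction follow from how they were chosen. Ighv4-2 had 176 counts in 12 129X1 libraries, at least 60.5-fold above the B6 limit, while its relative Ighv4-1 had 90 counts in B6 and 75 in 129X1. Ighv1-14 had 105 counts in 10 libraries, Ighv8-11 59 in 11, Ighv1-33 58 in 12 and Ighv1-83 49 in 10. Ighv1-86 had 108 counts, but in 3 libraries only, and 57 of them came from 1 library. Conversely, Ighv5-16 had 197 counts in 8 B6 libraries and 0 in 129X1, at least 63.6-fold above the 129X1 limit. Its B6 counts were 77, 55, 37 and 20 in the highest libraries and 1 to 3 in the other 4. Ighv1-62-2 had 24 counts in 5 B6 libraries and 0 in 129X1.

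The segments on which the strain comparison turns among functional genes are shown next, with the last 290 bases of each transcript in lower case and the conserved tyrosine, tyrosine and cysteine codons near the 3′ end in capitals, after which CDR3, the most variable loop of the antibody, begins. Ighv2-9 (chr12:113879096-113879541) was counted mainly in 129X1, and Ighv1-26 and Ighv5-16 (chr12:113838526-113839010) mainly in B6.
Ighv2-9: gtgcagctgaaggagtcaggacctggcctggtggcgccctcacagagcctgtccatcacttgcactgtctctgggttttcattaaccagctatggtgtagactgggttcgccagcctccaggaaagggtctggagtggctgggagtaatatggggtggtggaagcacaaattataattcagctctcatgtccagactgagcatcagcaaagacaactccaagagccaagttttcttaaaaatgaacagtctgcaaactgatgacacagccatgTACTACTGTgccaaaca
Ighv1-26: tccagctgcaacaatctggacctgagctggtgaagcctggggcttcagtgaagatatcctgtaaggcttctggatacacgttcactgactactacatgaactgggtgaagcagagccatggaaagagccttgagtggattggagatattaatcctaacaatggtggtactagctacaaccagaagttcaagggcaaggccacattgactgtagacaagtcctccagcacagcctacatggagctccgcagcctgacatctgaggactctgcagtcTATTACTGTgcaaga
Ighv5-16: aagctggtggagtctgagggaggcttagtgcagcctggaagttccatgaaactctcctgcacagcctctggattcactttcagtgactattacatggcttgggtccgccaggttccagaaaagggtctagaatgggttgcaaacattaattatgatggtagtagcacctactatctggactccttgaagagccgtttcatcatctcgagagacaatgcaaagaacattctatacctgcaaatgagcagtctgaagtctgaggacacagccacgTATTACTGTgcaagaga

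Ighv2-9 had 690 counts in 129X1 and 44 in B6. It was counted in 17 of 18 129X1 libraries, with a level of 0 to 9.39 CPM and a median of 0.366, and in 5 of 18 B6 libraries, with 0 to 1.00 CPM and a median of 0. The highest 129X1 libraries had 203, 155 and 120 counts and the highest B6 library 23, so the groups overlapped at the low end. Ighv2-9 was higher in 129X1 by 3.98 ± 0.84 (log2, SE) in a fit with additive terms for strain, treatment and regimen. Its adjusted p was 0.000409 (edgeR quasi-likelihood test, Benjamini-Hochberg over 26127 genes). In a fit of 12 group means the difference was 5.01 ± 1.01 with an adjusted p of 0.000647. Ighv2-9 and Ighv3-2 passed the threshold of 0.05 in both fits whichever library was left out. Ighv3-2 had adjusted p values of 0.000215 and 0.000428 in the same fits. With 0 counts in B6 it reached the count limit through 129X1 alone and could only come out higher there. Its p values and their stability therefore do not bear on the direction.

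Ighv1-26 went the other way. It had 648 counts in 13 B6 libraries and 48 counts in 7 129X1 libraries, and 324, 116 and 110 of the B6 counts came from 3 libraries. The highest 129X1 library had 15 counts. Ighv1-26 was lower in 129X1 by a log2 difference of -3.11 ± 0.95 (SE) with additive terms (edgeR adjusted p of 0.0129). The group means could not test it, since groups without a count of it lay on both sides (adjusted p of 1.00). At equal B cell and plasma cell scores it was -5.32 ± 0.89 (adjusted p of 3.39e-05). Ighv1-33, the reference pseudogene that differs from Ighv1-26 by the frameshift shown above among other bases, had 58 counts in 129X1 and none in B6.

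Across the 106 genes, the fit with additive terms called 36 for strain, 28 higher and 8 lower in 129X1. In the same fit 28.2% of all tested genes were called, 13.9% higher and 14.3% lower. The fit of 12 group means called 14, of which 13 were higher and 1 lower, against 25.9% of all genes, 13% higher and 12.9% lower. That fit cannot test 47 of the 106 genes, because a group on each side of the comparison held no count of them. The median log2 difference over the 106 genes was 0.33 with additive terms and 0.82 with group means, beside -0.01 and -0.003 over all genes. All 14 reference pseudogenes were called higher with additive terms, which their choice by total counts favours. Of the other 92 genes, 14 were higher and 8 lower, with a median of -0.03. Most of these called genes, Ighv8-11 and Ighv5-16 among them, also had under 10 counts in 1 strain. They reached the limit only through the other strain, so their choice favours the direction found. The number of 36 calls is favoured by that choice as well.

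B cell transcripts differed between the strains in the same direction as those 28 genes. Of 10 B cell markers, 8 were higher in 129X1 with additive terms and none lower, at a median log2 difference of 3.18. Their summed level ranged from 5.81 to 37.2 CPM in B6 and from 2.86 to 383 CPM in 129X1, with medians of 16.2 and 25.2, and no marker was at 0 throughout. The high end lay in 4 129X1 libraries, prophylactic vehicle 2, prophylactic Val 3, therapeutic vehicle 2 and therapeutic Sac/val 1, in which Cd79a, a signalling chain of the B cell receptor, stood at 43.1, 15.4, 34.0 and 19.1 CPM. Of 8 plasma cell markers, 2 were higher and 2 lower.

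Comparing the strains at equal B cell and plasma cell scores (mean log2 CPM of 4 marker genes each) left 29 genes called with additive terms, 15 higher and 14 lower. Among all genes 21.3% were called then, 10.8% higher and 10.4% lower. With group means 10 were called, 8 higher and 2 lower, against 18.9% of all genes, 9.62% higher and 9.31% lower. The medians over the 106 genes were -0.39 and -0.23. Without the 4 B cell rich libraries, the additive fit called 28 of 94 genes that could then be tested, 14 higher and 14 lower. Among all genes it called 6320 of 25778 in either direction. At equal scores and without these libraries together it called 18 higher and 11 lower, beside 6432 of all 25778 genes in either direction. With additive terms the surplus of higher calls was thus smaller in these comparisons, while the group means kept it at equal scores.

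A set of 15 genes was higher in 129X1 with additive terms both with and without the scores, beside 10% of all genes, and 4 were lower in both, beside 9.75%. Of the 15, 8 had 0 counts in B6 and so could only differ in that direction: Ighv3-2, Ighv4-2, Ighv1-14, Ighv1-33, Ighv1-83, Ighv1-23, Ighv7-2 and Ighv8-11. The same holds for Ighv5-16 among the 4. The other higher genes were the reference pseudogene Ighv1-2 and, among genes, Ighv2-9, Ighv5-9, Ighv14-1, Ighv6-7, Ighv1-4 and Ighv1-77. Ighv5-9 had 3 counts in B6 and 88 in 129X1 (log2 difference 3.85 ± 0.80, SE), Ighv14-1 7 and 103 (3.58 ± 0.76), and Ighv1-4 34 and 226. Ighv6-7 had 1 and 215 counts, but 197 of them came from 129X1 therapeutic vehicle 2. The 4 lower genes were Ighv1-26, Ighv5-16, Ighv1-50 and Ighv1-75. Ighv1-75 had 127 counts in B6 and 1 in 129X1, and Ighv1-50 had 56 and 4. Ighv6-7, Ighv1-2, Ighv5-9, Ighv14-1, Ighv1-75 and Ighv1-50 had under 10 counts in 1 strain and reached the limit only through the other. Their choice by total counts thus favours the direction found.

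Other differences depended on the fit. Ighv5-6 had 94 counts in B6 and 219 in 129X1, where it was found in 14 libraries against 6. It was higher in both fits without the scores and in the group means at equal scores, and had an adjusted p of 0.0987 with additive terms at equal scores (edgeR). Ighv1-53 had 597 counts in B6 and 129 in 129X1 and was lower in the fit of group means by -2.54 ± 0.84 (log2, SE), with an adjusted p of 0.0272. With additive terms its log2 difference was -1.84 and its adjusted p 0.0845. Ighv11-2, a segment typical of B-1 cells, had 105 counts in 12 B6 libraries and 21 counts in 6 129X1 libraries, and was lower by -1.92 ± 0.74 (adjusted p of 0.0492, additive terms). That call was lost without any 1 of 20 of the 36 libraries, under DESeq2 and at equal scores. Ighv1-58 had 80 and 4 counts, and 52 of the 80 came from B6 prophylactic vehicle 2; its call with additive terms was lost without any 1 of 8 libraries, without the 4 B cell rich libraries and at equal scores.

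Several genes were lower in 129X1 with additive terms only in the comparison at equal scores, and most of those named here also had fewer counts there. Ighv1-19 had 97 counts in 8 B6 libraries and 18 counts in 5 129X1 libraries, and Ighv1-78 101 counts in 9 and 21 in 6. Ighv14-4 had 115 counts in 6 B6 libraries and 22 counts in 3 129X1 libraries. The highest count of each of these genes, 37, 41 and 58, came from B6 prophylactic Val 1. Ighv1-61 had 49 counts in B6, 47 of them in therapeutic vehicle 2, and 7 in 129X1. Ighv1-64 had 333 and 146 counts with like shares, a median of 1.12% of a library's Ighv counts in B6 and 1.15% in 129X1. Ighv2-9-1 had more counts in 129X1 (136 against 78) and was nonetheless lower by -2.88 ± 0.75 (log2, SE) at equal scores. Whether the scores take away strain differences of another source was not tested.

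Family use was compared as shares of each library's own Ighv counts. Over the 14 libraries of each strain with 100 or more Ighv counts, the large Ighv1 (J558) family took a median of 56.5% in B6 and 35.4% in 129X1. The ranges overlapped, at 3.31% to 81.5% and 12.0% to 54.9%. Ighv2 (Q52) took 1.39% in B6 and 10.8% in 129X1 (ranges 0% to 9.03% and 2.11% to 31.0%), and Ighv2-9 alone had a median of 4.71% in 129X1. Ighv3 took 2.31% and 8.31%, Ighv6 1.63% and 4.44%, and Ighv5 10.5% and 9.21%. Every family but Ighv1 and Ighv5 had at least 1 such library with no count. Of the 106 genes in order along the locus, the 53 nearest the constant genes took a median of 50.7% of the counts in B6 and 69.3% in 129X1. No test was made of these shares.

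**Figure D2:**
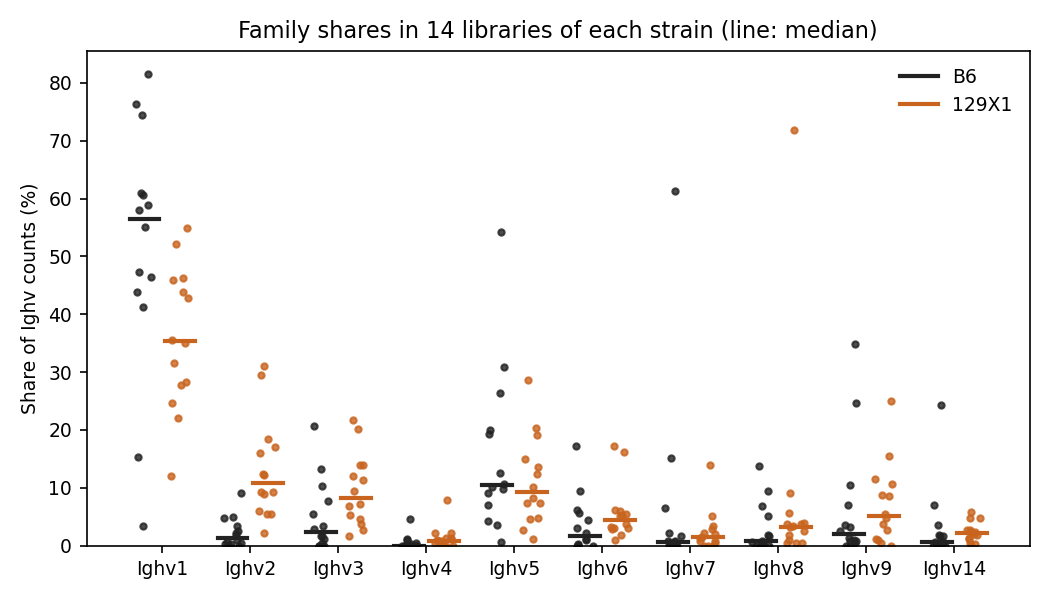
Share (%) of each library's Ighv counts held by the families Ighv1 to Ighv9 and Ighv14, for 14 B6 and 14 129X1 libraries with 100 or more Ighv counts. The other families are not drawn. Points are libraries and lines medians. The medians of Ighv1 were 56.5% in B6 and 35.4% in 129X1, and those of Ighv2 1.39% and 10.8%, with overlapping points in each family.

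Counts of single genes came from few arteries. A gene was detected in 3 to 26 libraries, with a median of 13, and in 31 of the 106 a single library held 50% or more of its counts. The most counted gene, Ighv1-54, had 832 of its 1033 counts in 129X1 therapeutic vehicle 2. Ighv8-12 had 500 of 778 counts in 129X1 prophylactic Sac/val 2, Ighv1-7 393 of 596 in B6 therapeutic Val 3 and Ighv6-6 337 of 638 in 129X1 therapeutic vehicle 2. The other genes among the 10 with most counts were Ighv5-17, Ighv9-3, Ighv2-9, Ighv1-53, Ighv3-6 and Ighv1-26, and in these 1 library held less than 50%. Ighv14-3, outside those 10, had 363 of 510 counts in B6 prophylactic Val 1. Ighv5-17 was counted in both strains, with 409 counts in 11 B6 libraries and 471 counts in 13 129X1 libraries. Ighv9-3 had 165 and 651 counts, with a median share of 0.76% in B6 and 3.00% in 129X1, and was not called for strain in either fit. Ighv3-6 had 428 and 278 counts, 261 of the former in B6 therapeutic vehicle 2.

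Dominance by single segments was described in the 28 libraries with 100 or more Ighv counts. The leading gene held from 8.87% to 61.3% of the Ighv counts in B6, with a median of 25.5%, and from 9.83% to 65.8% in 129X1, with a median of 17.4%. It held over 20% in 10 of 14 B6 libraries and in 5 of 14 129X1 libraries. The effective number of genes, which is the number of equally used genes that would give the same evenness (inverse Simpson), ranged from 2.14 to 28.1 in B6 (median 7.42) and from 2.27 to 28.4 in 129X1 (median 16.6). It was under 7 in 7 B6 libraries and in 1 129X1 library, and 15 or more in 3 and 9. The order turned in the libraries with 500 or more Ighv counts, where the median was 15.2 in B6 (n = 6) and 13.7 in 129X1 (n = 5), and no test was made. The number of genes detected ranged from 12 to 80 in B6 (median 25.5) and from 28 to 95 in 129X1 (median 58). At an equal depth of 500 Ighv counts, the expected number of genes was 17.7 to 64.0 in those 6 B6 libraries (median 50.7) and 40.1 to 76.7 in those 5 129X1 libraries (median 64.2). Different arteries were led by different genes: 21 genes led the 28 libraries, Ighv1-54 in 3 and Ighv2-9, Ighv1-26, Ighv3-2, Ighv9-3 and Ighv5-17 in 2 each.

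The most uneven 129X1 library was prophylactic Sac/val 2. There Ighv8-12 held 500 of 760 Ighv counts (65.8%, exact 95% interval 62.3% to 69.2%), for an effective number of 2.27. Its kappa light-chain counts were led by Igkv10-96 with 55.6%. In B6 therapeutic Sac/val 1, Ighv7-3 held 111 of 181 counts (61.3%, interval 53.8% to 68.5%) and Ighv5-16 another 55, and these genes together made 91.7%. Intervals cover counting error only. In B6 therapeutic Val 3, Ighv1-7 held 393 and Ighv1-53 279 of 946 counts, and the most counted heavy constant gene was Igha at 223 CPM, which encodes the IgA heavy chain. B6 prophylactic Val 3 was led by Ighv1-81 with 45.9% of 135 counts. At the other end, the even libraries included the richest ones: 129X1 prophylactic vehicle 2 with an effective number of 28.4 over 2554 counts, and B6 therapeutic vehicle 2 with 25.4 over 3566. 129X1 therapeutic vehicle 2, with 3378 counts, was rich but less even, with Ighv1-54 at 24.6% and an effective number of 11.4.

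**Figure D3:**
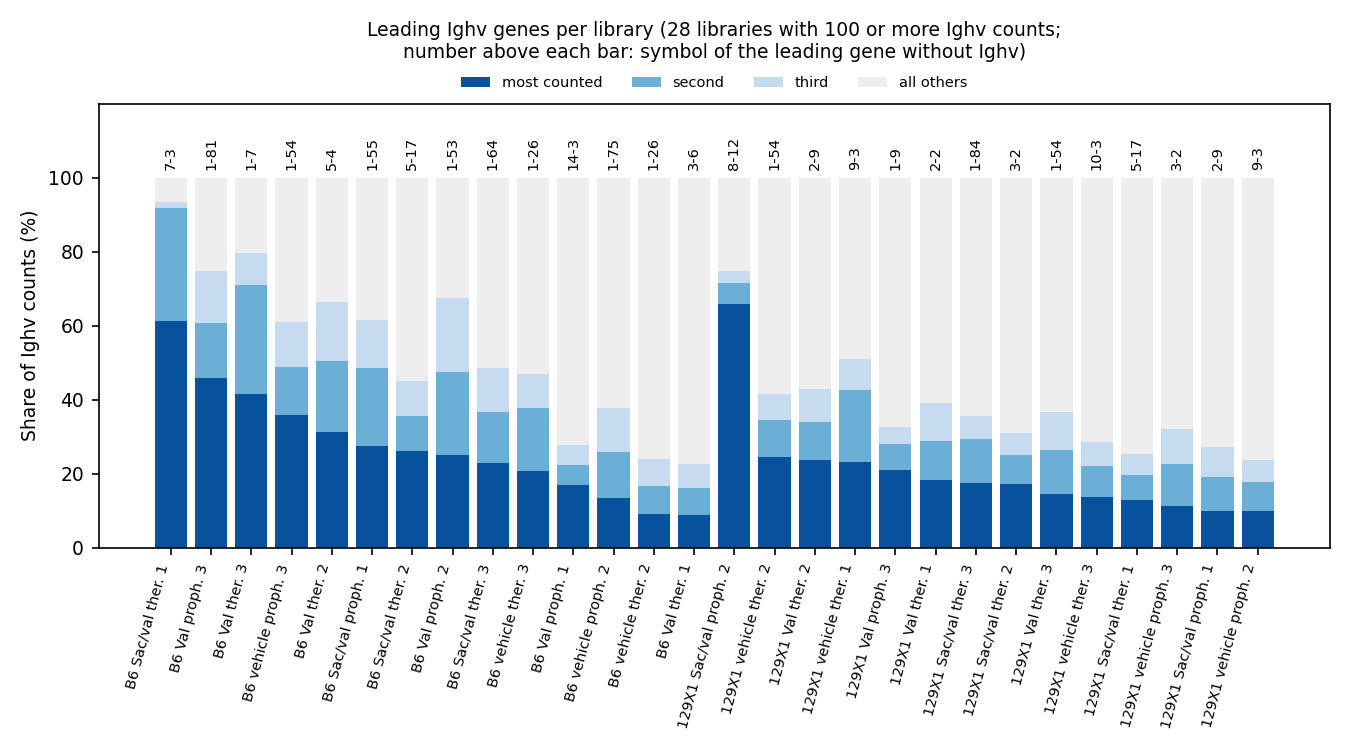
Stacked bars of the share (%) of each library's Ighv counts held by each of its 3 most counted genes and by all others, for the 28 libraries with 100 or more Ighv counts, ordered by the leading share within strain. Leading shares run from 61.3% to 8.87% in B6 and from 65.8% to 9.83% in 129X1, and the symbol above each bar shows that different genes lead.

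Kappa light-chain variable genes (Igkv), which sit on another chromosome and rearrange separately, showed the same libraries as uneven. In the 8 libraries whose effective number of Ighv genes was under 7, the effective number of Igkv genes was 2.64 to 6.82, with a median of 3.72. In the 8 libraries from 7 to under 15 it was 4.57 to 17.2 (median 11.7), and in the 12 libraries at 15 or more it was 9.84 to 35.1 (median 18.4). Both numbers of a point come from the same library and share its depth and cell content, and this is a description without a test.

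**Figure D4:**
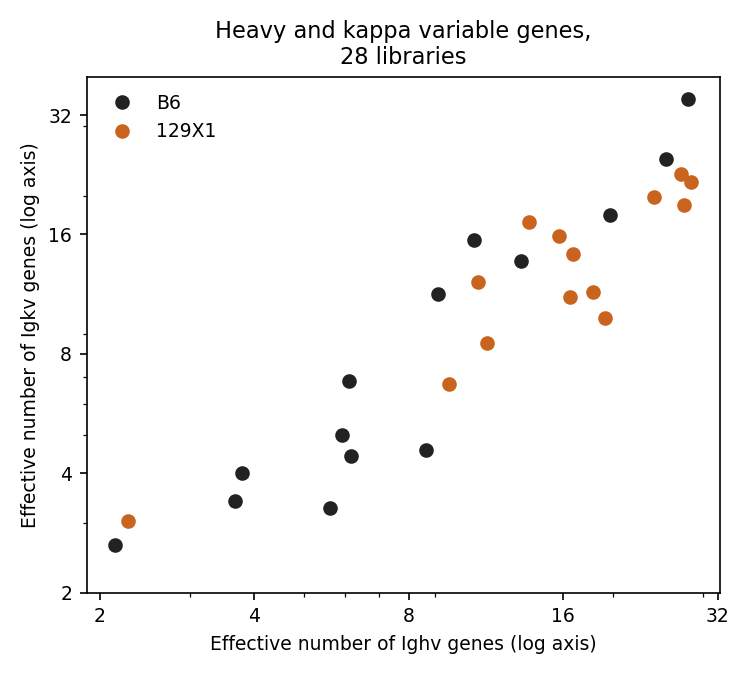
Effective number of Igkv genes against effective number of Ighv genes, both on log axes, in the 28 libraries with 100 or more Ighv counts; each point is 1 artery, coloured by strain. Libraries under 7 on the heavy-chain axis lie between 2.64 and 6.82 on the light-chain axis, and those at 15 or more lie between 9.84 and 35.1.

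The other genes of the antibody chains were read in the same fits. With additive terms 15 of 88 Igkv genes (17%) were higher in 129X1, beside 13.9% of all genes, and none was lower. At equal scores 8 were higher (9.09%) and 6 lower (6.82%), below the shares of 10.8% and 10.4% among all genes. Of 8 heavy constant genes, 4 were higher in 129X1: Ighd, Ighg1, Ighe and Ighg3, with log2 differences of 3.26, 5.37, 3.86 and 2.84, and at equal scores 1 of the 8 was higher. Ighm, the constant gene of IgM, differed by -0.16 and Igha by 0.09, and neither was called. None of 4 light constant genes and none of the 4 heavy joining and diversity genes that could be tested was called. Ighm had the highest level of the heavy constant genes in 31 of 36 libraries.

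The 3 B6 libraries with the highest Ighv levels also held transcripts of lymphocyte development, while others below them differed. The 3 libraries with the highest Rag1 were B6 prophylactic Val 1, therapeutic Val 1 and therapeutic vehicle 2, at 1738, 965 and 826 CPM. They also held Ptcra, the pre-T cell receptor alpha chain of thymocytes, at 42.9, 25.4 and 19.6 CPM, against a B6 median of 0.0839. Their Ighv levels were 97.4, 48.7 and 156 CPM, the 3 highest of the B6 libraries, and their Cd79a levels 2.59, 1.05 and 2.14 CPM. Below them came B6 therapeutic Val 3, prophylactic Sac/val 1 and therapeutic vehicle 3, with Ighv levels of 40.9, 24.5 and 24.2 CPM. The Rag1 levels of these libraries were 4.97, 0.945 and 135 CPM. The 5 thymocyte markers summed to 4.53 to 2341 CPM in B6 (median 11.1) and to 1.62 to 982 CPM in 129X1 (median 146), with none at 0 throughout. They were not called for strain. The part of thymus or other lymphoid tissue in these Ighv counts was not tested.

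The total Ighv level varied far more between mice of a group than between treatments. It ranged from 0.469 to 156 CPM after vehicle (median 14.96), from 0.450 to 97.4 after Val (median 11.7) and from 0.415 to 73.5 after Sac/val (median 11.2), with 12 libraries each. It ranged from 0.415 to 118 CPM in the 18 prophylactic libraries (median 9.77) and from 0.598 to 156 in the 18 therapeutic ones (median 16.96). All these ranges overlapped almost entirely. In B6 the medians were 15.8 after vehicle, 29.6 after Val and 5.72 after Sac/val, and in 129X1 13.1, 8.94 and 18.5. The strains as wholes had medians of 14.3 CPM in B6 and 11.2 in 129X1, and the 3 richest libraries of each held 61.1% and 66.5% of its summed Ighv counts.

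**Figure D5:**
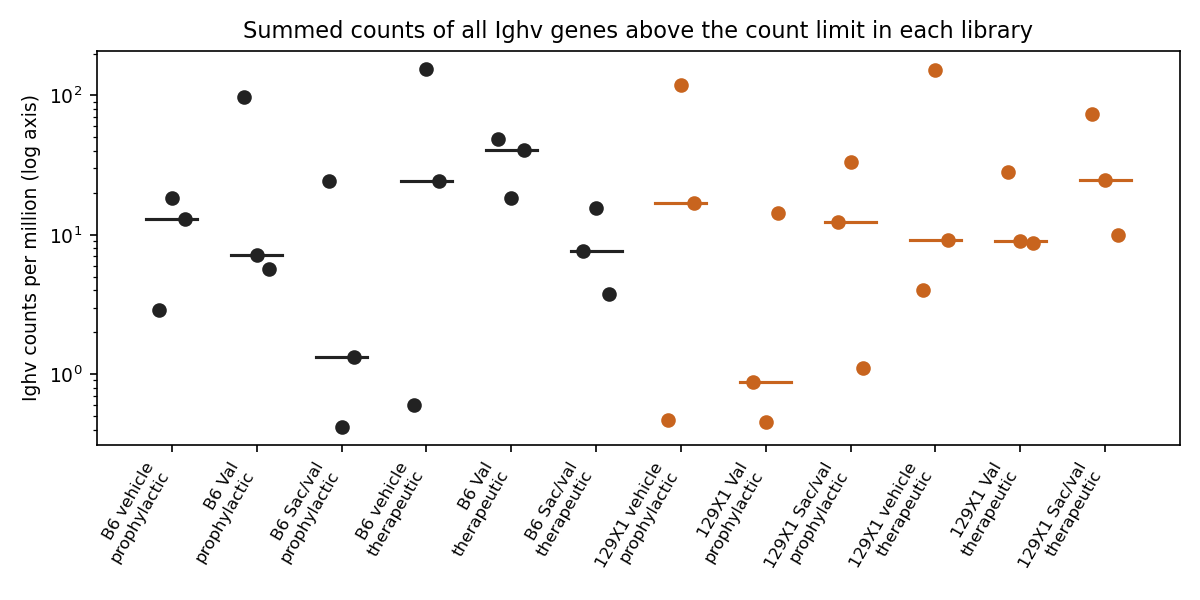
Ighv level in each of the 36 libraries in CPM on a log axis, in 12 groups of 3 by strain, regimen and treatment; points are arteries and lines group medians. Levels span 0.415 to 156 CPM, and arteries of the same group often differ by more than the medians of different treatments.

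No Ighv gene was called for any drug or regimen comparison by edgeR, in either fit. With group means many could not be tested, since groups on both sides held no count of them. These were 59 of the 106 genes for Sac/val against vehicle, 48 for Val against vehicle, 57 for Sac/val against Val and 72 for regimen. For the Sac/val and Val effects by strain they were 62 and 47. The group-means shares below are nonetheless over all 106. The share called among all 26127 genes was also 0 for Sac/val against vehicle, Val against vehicle, Sac/val against Val, therapeutic against prophylactic, and the difference of each drug effect between strains. At an unadjusted p below 0.05, with group means and then additive terms, there were 17 and 33 of the 106 genes for Sac/val against vehicle (16.0% and 31.1%), where 2.32% and 2.72% of all genes lay. For Val against vehicle there were 10 and 26 (9.43% and 24.5%, beside 2.73% and 3.25% of all genes). For Sac/val against Val there were 8 and 20 (7.55% and 18.9%, beside 3.12% and 3.33%), and for regimen 7 and 17 (6.60% and 16.0%, beside 3.73% and 4.29%). The Sac/val effect by strain had 4 and 10 (3.77% and 9.43%, beside 3.82% and 4.71%) and the Val effect by strain 15 and 19 (14.2% and 17.9%, beside 5.47% and 6.02%). These genes share libraries and are not independent of each other. DESeq2 on group means called 6 lower for Sac/val against vehicle (Ighv14-2, Ighv14-3, Ighv1-7, Ighv1-39, Ighv1-54 and Ighv8-8), of 10 called among all 26084 genes it gave an adjusted p. It called 5 lower for Sac/val against Val, of 18 among all genes, 1 higher for regimen (Ighv5-12), of 19, and 3 for the Sac/val effect by strain, of 5. It called none for Val against vehicle or for the Val effect by strain. Ighv1-7, Ighv14-2 and Ighv14-3, called in each Sac/val comparison, had no count in any B6 Sac/val library. Their Val counts came mainly from 1 artery each. These were B6 therapeutic Val 3 for Ighv1-7 (393 of 409) and B6 prophylactic Val 1 for Ighv14-3 (363 of 410) and Ighv14-2 (99 of 130). For Ighv1-39 it was B6 prophylactic Val 1 (109 of 126), and for Ighv8-8 B6 therapeutic Val 1 (66 of 91).

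The median difference over the genes moved with a pair of B cell rich vehicle libraries, without which 99 of the 106 could be tested. With all libraries the group means cannot test 59 of the 106 genes for Sac/val against vehicle and 72 for regimen, among other comparisons. Medians of the group means thus include differences that the counts do not define. The median log2 difference over the 106 genes for Sac/val against vehicle was -1.32 with group means and -1.48 with additive terms, beside -0.003 and -0.002 over all genes. Without 129X1 vehicle prophylactic 2 and therapeutic 2, both B cell rich, it was -0.20 and -0.11 over those 99 genes, which had -1.33 and -1.42 with all libraries. For Val against vehicle the median over the 99 was -0.84 and -0.73 with all libraries, and 0.52 and 0.12 without the pair. For therapeutic against prophylactic it was 0.80 and 0.85, and 1.10 and 1.37 without the pair. For the Sac/val effect by strain it was 1.21 and 1.77, and 3.80 and 4.36 without the pair. For the Val effect by strain it was -2.80 and -2.48, and 0.003 and 0.04 without the pair. Single libraries also turned some medians. With all libraries, the group-means median over the 106 genes was 1.09 for the Sac/val effect by strain. It was -0.26 without B6 therapeutic vehicle 2 alone. For Sac/val against Val it was -0.55 with group means and -0.49 with additive terms. Without B6 prophylactic Val 1 alone these medians were 0.002 and 0.17. Leaving out all 4 B cell rich libraries, which include 129X1 prophylactic Val 3 and therapeutic Sac/val 1, left 94 genes. Over these the additive median was -0.93 for Sac/val against vehicle and 0.13 for Val against vehicle. It was -1.11 for Sac/val against Val and 0.89 for regimen.

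Several genes with the smallest p values for treatment had most of their counts in 1 artery, and others had not. Ighv1-54 had the smallest p for Sac/val against vehicle, with a log2 difference of -5.78 ± 1.46 (SE) and an adjusted p of 1.00 in the group means (edgeR). It had 974 counts in 5 of 12 vehicle libraries, 53 in 6 of 12 Val libraries and 6 in 3 of 12 Sac/val libraries, and 832 of the 974 were in 129X1 therapeutic vehicle 2. Ighv9-3, with the smallest p for Val against vehicle in the group means, had 617 counts in 7 vehicle libraries, 40 in 8 Val libraries and 159 in 9 Sac/val libraries, and 251 and 238 of the 617 were in 129X1 prophylactic vehicle 2 and therapeutic vehicle 2. Ighv8-5 had 4, 10 and 77 counts after vehicle, Val and Sac/val, and 43 of the 77 were in 129X1 prophylactic Sac/val 2. For regimen, Ighv13-2 had 2 counts in 2 of 18 prophylactic libraries and 43 in 7 of 18 therapeutic ones (log2 difference 3.40 ± 0.82, adjusted p of 0.293 with additive terms, edgeR). At most 17 of the 43 came from 1 library, and the difference stayed between 2.74 and 3.78 whichever library was left out. Ighv8-12, whose difference in the Sac/val effect between strains had the smallest p in the group means, had 500 of its 530 Sac/val counts in 129X1 prophylactic Sac/val 2. Ighv6-6, with the smallest p for the Val effect by strain in the group means, had a log2 difference of -7.26 ± 2.53 (SE) and an adjusted p of 0.676 (edgeR). Its largest counts, 337 and 91, were in 129X1 therapeutic vehicle 2 and prophylactic vehicle 2. Ighv14-3, with the second smallest p there, had 363 of its counts in B6 prophylactic Val 1.

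Evenness overlapped between the treatments in the 28 libraries. The median effective number was 13.3 after vehicle (5.62 to 28.4, n = 9), 12.3 after Val (3.66 to 28.1, n = 10) and 9.11 after Sac/val (2.14 to 27.6, n = 9). With both strains pooled the ranges overlapped over most of their length, and the libraries with the lowest numbers came from both drugs. In B6 the medians were 12.0 after vehicle (5.62 to 25.4, n = 4), 6.06 after Val (3.66 to 28.1, n = 6) and 7.39 after Sac/val (2.14 to 9.11, n = 4). In 129X1 they were 19.3 (9.57 to 28.4, n = 5), 15.1 (10.9 to 16.7, n = 4) and 18.3 (2.27 to 27.6, n = 5). No test was made of these numbers.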

How the data were processed

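Per the submitters' processing notes, the authors used Trimmomatic 0.36, STAR 2.5.2b and featureCounts of Subread 1.5.0p3 with GRCm38. The authors deposited raw whole-number counts per gene symbol. The annotation release and the strand and multi-mapping settings are not given in the sources used here, and reads shared by near-identical segments may be split or lost. The 36 libraries come from separate mice, and no batch is labelled. Genes with 10 or more counts over all libraries (26127) were tested with edgeR 4.0.16 (quasi-likelihood, TMM factors, Benjamini-Hochberg, called below 0.05) in R 4.3.3, checked on simulated data. The simulation placed strain differences only in genes with 200 or more counts, with 1 spread for all genes. It therefore does not cover differences in sparse genes or genes held mainly by 1 library. The planned fit used 12 group means. A fit with additive terms was added after seeing the data, because contrasts of group means have no value where groups on both sides hold no count. Alternatives were DESeq2 1.42.0 (test and size factors), filterByExpr, a robust prior, B and plasma cell scores, and leaving out libraries. Shares and effective numbers were computed in Python 3.11.15 with scipy 1.17.1, and alignments made with Biopython 1.88. The members and lists were chosen with earlier results of these data known. Named genes were up to 12 called per direction with the smallest p for strain, the 10 most counted, the leading genes of libraries with 200 or more Ighv counts and a share of 20% or more, and the 3 smallest p of the other comparisons; further genes were named after their values were seen. No 2 replicates held identical counts.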

Additional observations from a re-analysis of the deposited data

Results flagged for a closer look

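The Ighv level, the leading share and the effective number were each looked at in the libraries of the same strain and treatment, with both regimens pooled, which made 18 combinations of a measure and a set. In 3 of them a library's gap to the nearest other library was large for the range of its set. For normally distributed values, chance gives about 1 such flag in 20 combinations. That rate may not hold for these untransformed levels and shares, and the leading share and effective number come from the same libraries. The Ighv level of B6 therapeutic vehicle 2, 155.7 CPM, lay far above the other B6 vehicle libraries. The leading share of 129X1 prophylactic Sac/val 2, 65.8% for Ighv8-12, lay far above the other 129X1 Sac/val libraries. The leading share of B6 therapeutic Sac/val 1, 61.3% for Ighv7-3, lay far above the other B6 Sac/val libraries with 100 or more Ighv counts.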

How the results depend on the processing

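With group means, the number of Ighv genes called for strain was 14. Without the 2 B cell rich libraries it was 8 of 99, beside 6694 of all 25989 genes tested. At equal scores it was 10. By DESeq2 it was then 4 of 89, beside 5826 of 23087 genes, and without those libraries 6 of 99, beside 5322 of 25989. With additive terms the number for strain was 36. It was 21 of 71 by DESeq2, beside 7577 of all 23957 genes, and 16 of 64 after filterByExpr, beside 6556 of 18628. At equal scores it was 29. By DESeq2 it was then 16 of 93, beside 6027 of 23594 genes, and after filterByExpr 19 of 64, beside 5036 of 18628. DESeq2 with group means called 6 for Sac/val against vehicle, 5 for Sac/val against Val, 1 for regimen and 3 for the Sac/val effect by strain. With additive terms it called 3 for the last, of 4 among all genes. The edgeR fits called 0 in each of these. Fewer genes were tested after filterByExpr (64 of the 106) and by DESeq2; the cause of the other changes was not tested. Leaving out 1 library in turn gave 6 to 18 calls for strain and 4 to 12 at equal scores with group means, 31 to 40 and 27 to 31 with additive terms, 0 to 1 for Val against vehicle with additive terms and 0 to 0 for the other comparisons; this was not run for the effects by strain with additive terms. The lowest strain count, 6, came without 129X1 prophylactic Val 3, and that of 4 at equal scores without B6 prophylactic vehicle 3. The 1 call for Val was Ighv6-7, without 129X1 therapeutic vehicle 1. Counts of 5 to 6 at equal scores came without B6 prophylactic vehicle 2, prophylactic Sac/val 1, therapeutic vehicle 1 or therapeutic Sac/val 2, or 129X1 prophylactic vehicle 2, Val 3 or Sac/val 2. The additive strain median of 0.33 turned to -0.07 without 129X1 prophylactic vehicle 2 and to -0.05 without 129X1 therapeutic Sac/val 1. The group-means strain median at equal scores turned from -0.23 to 0.24 without B6 prophylactic Val 1. No named gene changed direction while called. No paired analysis was possible because the replicate numbers here only name libraries in accession order and the labels pair no mice.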
